A study of Mus musculus with 4 samples.

Results

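Myd88, Tirap, Ticam1, Ticam2, Irak1, Irak2, Irak3, Irak4, Traf6 and Traf3 encode the adaptor proteins and first kinases and ligases that carry a signal from Toll-like receptors (TLRs) into the cell. These 10 genes were chosen by symbol out of 24411 in the count tables, and 9 of the 9992 genes with enough reads for a test were among them. The missing one, Irak4, had too few reads. Transcripts were counted by strand-specific RNA sequencing in the murine microglial line BV2, with 2 libraries from cells given lipopolysaccharide (LPS), a bacterial cell wall component sensed by TLR4, and 2 libraries from untreated cells. The LPS group is labelled Pu.1 KO, LPS-treated, at 10 ng/ml, with an exposure of 4 h in the title and 2 h in the source name, a conflict that was not settled. The untreated group is labelled Pu.1 KO, not treated. Both groups thus carry the same label, of a CRISPR-Cas9 edit of the gene for PU.1, a myeloid transcription factor. The comparison therefore addressed the LPS response of edited cells, and unedited cells are not analysed here. The labels do not say whether the edited cells are 1 clone or whether the libraries came from separate cultures, so p-values measure only the spread between these libraries, which may be technical.

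Gene counts totalled 3256197 and 3749159 in the LPS libraries and 4502105 and 4115011 in the untreated libraries. Levels are given as CPM, counts scaled to a common library total, after TMM scaling, a correction for differences in library composition. Spi1, the gene of PU.1, was counted in every library (745 and 958 counts with LPS, 844 and 743 counts untreated), which shows its transcript and not the edit. Scaled for library size and composition, Spi1 was at 274 ± 23.1 CPM with LPS and 163 ± 2.06 CPM untreated (SD, n = 2 each), 1.69-fold higher (edgeR adjusted p = 8.77e-10). Of 18 microglial and macrophage markers 14 could be tested, and their summed level was 4080 and 4350 CPM with LPS and 3180 and 3290 CPM untreated, while the microglial markers Sall1 and Siglech were at 0. Markers of astrocytes, neurons, oligodendrocytes, fibroblasts, lymphocytes and epithelium summed to at most 1.39 CPM per cell type in any library. The 6 endothelial markers summed to 49.9 and 34.0 CPM with LPS and 22.8 and 23.2 CPM untreated, with Pecam1, Cldn5 and Tek at 0, and their part in the results was not tested. In bulk RNA, fewer cells of a kind and less RNA per cell cannot be told apart.

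At the cell surface, TLR4 recruits TIRAP (also called MAL), which bridges to MyD88. MyD88 assembles with IRAK4, IRAK1 and IRAK2 into the Myddosome, and the ligase TRAF6 passes the signal on to the kinase TAK1, NF-kB and MAP kinases. From endosomes, TLR4 uses TRAM (Ticam2) and TRIF (Ticam1), which engage TRAF3 and the kinase TBK1 to switch on IRF3 and type I interferon genes. IRAK-M, the product of Irak3, is a kinase relative with little or no catalytic activity that restrains the pathway in macrophages and is known to accumulate after LPS.

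Stretches of 250 bases before the start of transcription, as given by RefSeq for GRCm38.p6, are shown for Irak2, the most abundant gene among those with a several-fold rise, for Myd88, the adaptor with the highest fold change, and for Irak1, the gene that was called lower. Capitals mark a motif that was found. The searched motifs were the NF-kB site by its kB consensus, the interferon-stimulated response element by its ISRE core, the AP-1 site TGANTCA and the PU box GAGGAA, each on both strands.
Irak2, chr6:113638217-113638466, plus strand: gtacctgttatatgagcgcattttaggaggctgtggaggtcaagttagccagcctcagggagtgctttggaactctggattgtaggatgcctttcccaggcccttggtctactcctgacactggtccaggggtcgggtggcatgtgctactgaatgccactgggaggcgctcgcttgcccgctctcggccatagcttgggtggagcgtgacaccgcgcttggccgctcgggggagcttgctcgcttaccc
Myd88, chr9:119340019-119340268, minus strand: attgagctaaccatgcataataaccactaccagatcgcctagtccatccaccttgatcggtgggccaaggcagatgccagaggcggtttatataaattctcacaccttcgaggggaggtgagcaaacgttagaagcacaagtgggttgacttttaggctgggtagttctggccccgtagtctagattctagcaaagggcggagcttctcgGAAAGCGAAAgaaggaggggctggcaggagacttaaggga
Irak1, chrX:74023922-74024171, minus strand: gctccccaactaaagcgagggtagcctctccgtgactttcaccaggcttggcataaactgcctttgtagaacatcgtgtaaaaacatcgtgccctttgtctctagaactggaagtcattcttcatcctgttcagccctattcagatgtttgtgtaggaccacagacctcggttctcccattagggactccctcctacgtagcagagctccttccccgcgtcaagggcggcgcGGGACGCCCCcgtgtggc

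The Myd88 window held an ISRE core from 40 to 31 bases before the start, a motif found in 2.98% of 32851 windows of all genes. In the GENCODE annotation Myd88 spans chr9:119335934-119341411 on the minus strand, so this RefSeq window lies inside it and not before its outermost start. The Irak1 window shown held a kB consensus from 18 to 9 bases before the start, found in 7.25% of windows. The other Irak1 window held the same site from 21 to 12 bases before its start. The Irak2 window and both windows of Irak3 held none of the 4 motifs, which says only that these letters were not in these windows. Of the other genes, Traf3 had a kB consensus ending at the base before the start, while Ticam1 had 1 and Traf6 had 2 PU boxes, a motif of 23.3% of windows. No window held the AP-1 site among the 12 windows of 9 matched genes. That site was found in 6.75% of windows of all genes, so its absence from so few windows says little. No motif overlapped another in these windows.

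Transcripts of an IRAK kinase, the inhibitory IRAK and the central adaptor were more abundant after LPS. Irak2 was 6.99-fold, Irak3 7.29-fold and Myd88 2.08-fold higher in LPS-treated cells. The other adaptors and both TRAF genes differed by 1.51-fold or less in either direction. Of the 9 tested genes, 5 were higher at an adjusted p below 0.05 (edgeR's quasi-likelihood test with Benjamini-Hochberg adjustment over all genes tested), where 26.6% of all genes tested were higher. The single lower gene, Irak1, compares with 25.3% of all genes lower. At 2-fold or more, 3 of the 9 were higher, against 9.47% of all genes. The median log2 fold change of the 9 genes was 0.47, and that of all genes tested was 0.00063.

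**Figure D1:**
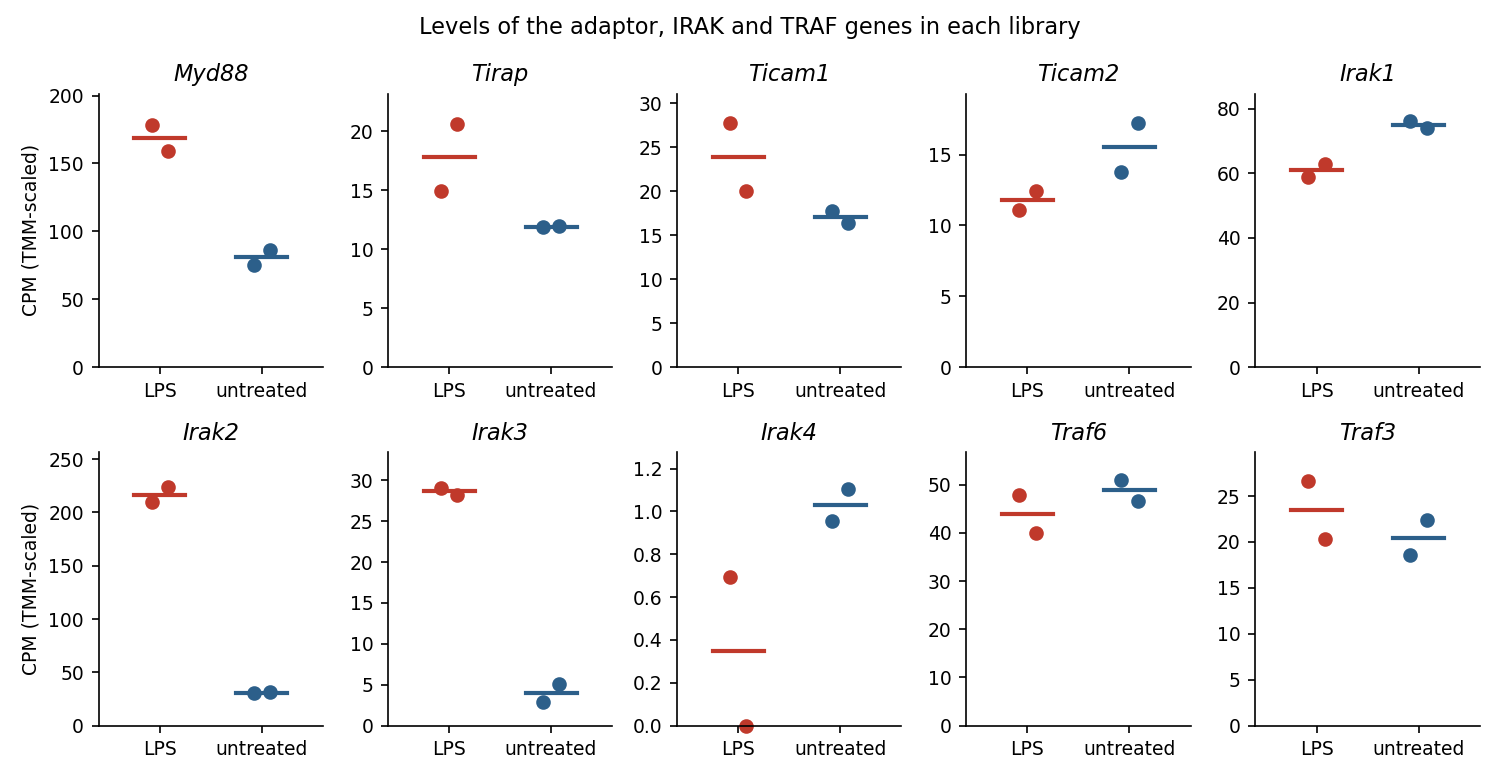
Level of each gene in CPM (vertical axes start at 0 and differ between panels) in the 2 LPS libraries (red) and the 2 untreated libraries (blue), with bars at the group means. Irak2, Irak3 and Myd88 stand well apart between groups, Traf6 and Traf3 overlap, and Irak4 stays at or under 1.11 CPM in every library.

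Among the adaptors, Myd88 had the highest level and the clearest difference. Its level was 178 and 159 CPM in the LPS libraries and 75.5 and 86.5 CPM in the untreated libraries. Both LPS values lay well above both untreated values. The log2 fold change was 1.06 (SE 0.10, edgeR adjusted p = 1.75e-12), rank 902 from the top among 9992 genes. The call held in all 15 alternative settings, with log2 fold changes of 0.70 to 1.20.

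Tirap, the bridging adaptor at the membrane, had 14.9 and 20.6 CPM with LPS and 11.9 and 11.9 CPM untreated. The groups did not overlap, but the LPS libraries differed from each other by more than the lower of them differed from the untreated ones. It rose by 0.59 on the log2 scale (SE 0.22, edgeR adjusted p = 0.0193). That call was lost without LPS replicate 2 (log2 fold change 0.32, adjusted p = 0.351), without untreated replicate 1 (0.58, adjusted p = 0.0831) and without untreated replicate 2 (0.59, adjusted p = 0.0698). DESeq2 did not call it either (adjusted p = 0.256), and under plain library-size scaling it was at 0.23 (adjusted p = 0.364).

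Ticam1, which encodes TRIF, had 27.7 and 20.04 CPM with LPS and 17.8 and 16.4 CPM untreated. As with Tirap, the LPS pair was far apart while both its values exceeded the untreated pair. Ticam1 rose by 0.47 on the log2 scale (SE 0.19, edgeR adjusted p = 0.0336). The call was lost without LPS replicate 1 (0.23, adjusted p = 0.424), without untreated replicate 1 (0.53, adjusted p = 0.0771) and without untreated replicate 2 (0.41, adjusted p = 0.168). It was also lost with DESeq2 (adjusted p = 0.290) and under plain library-size scaling (0.11, adjusted p = 0.633), and it was larger after GC correction (0.71, adjusted p = 0.00223).

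Ticam2, which encodes TRAM, the partner of TRIF, had 11.1 and 12.5 CPM with LPS and 13.8 and 17.3 CPM untreated. Both LPS values lay below both untreated values, yet the difference was not called (log2 fold change -0.38, 95% interval -0.84 to 0.07, edgeR adjusted p = 0.149). It was lower and passed under plain library-size scaling (-0.74, adjusted p = 0.00274) and after GC correction (-0.53, adjusted p = 0.0449). In the GENCODE annotation 14.5% of its exon bases are shared with Tmed7 on the same strand, where strand does not tell the genes apart. The annotation that was counted is not stated, so how reads there were assigned is not known. Tmed7, a vesicle transport gene, was at 226 ± 11.8 CPM with LPS and 197 ± 16.9 CPM untreated (SD, n = 2 each; edgeR adjusted p = 0.0641).

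Among the IRAK genes, Irak2 and Irak3 rose, Irak1 was slightly lower and Irak4 had too few reads for a test. Irak2, a kinase that takes part in sustained signalling in macrophages, had 210 and 224 CPM with LPS and 30.2 and 31.9 CPM untreated. The libraries of a group were close and the groups far apart. Its log2 fold change was 2.81 (SE 0.11, edgeR adjusted p = 5.61e-27), rank 238 of 9992, and it was called in all 15 alternatives at 2.45 to 2.93.

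Irak3, the gene of IRAK-M, had 29.1 and 28.2 CPM with LPS and 2.87 and 5.09 CPM untreated. The untreated values rest on 15 and 23 reads, against 84 and 93 reads with LPS. Irak3 rose by 2.87 on the log2 scale (SE 0.25, edgeR adjusted p = 3.35e-14, rank 225) and was called in all 15 alternatives, at 3.30 without untreated replicate 2 and 2.48 without untreated replicate 1. The intervals of Irak3 (2.37 to 3.36) and Irak2 (2.58 to 3.03) overlapped, and the ratio of Irak3 to Irak2 reads did not separate the groups.

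Irak1, the kinase that is phosphorylated in the Myddosome and then degraded, had 58.9 and 62.8 CPM with LPS and 76.1 and 73.9 CPM untreated. Both LPS values were below both untreated ones, by less than the changes of Irak2 and Irak3. Irak1 fell by 0.30 on the log2 scale (SE 0.12, edgeR adjusted p = 0.0314). The call was lost without LPS replicate 1 (adjusted p = 0.0988), without untreated replicate 1 (adjusted p = 0.179) and without untreated replicate 2 (adjusted p = 0.106), with DESeq2 (adjusted p = 0.216) and after GC correction (-0.18, adjusted p = 0.183). Under plain library-size scaling the log2 fold change was -0.66, in a setting where the median over all genes was at -0.36.

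Irak4, the kinase at the base of the Myddosome, was at the edge of detection. It had 2 and 0 reads in the LPS libraries and 5 and 5 reads in the untreated libraries, or 0.69 and 0 CPM with LPS and 0.96 and 1.11 CPM untreated. The ratio of its scaled counts was 0.316, with a 95% exact interval of 0.0336 to 1.48 that covers counting error only and includes equality. Its mean over the 4 libraries, 0.689 CPM, was above that of 16.6% of the 12982 genes with any count. Other filters and DESeq2, which let it into the test, gave adjusted p-values of 0.197 to 0.571. A level this low does not show that the kinase was absent from the cells, and the sources do not say how much of the gene the authors' annotation covered. In GENCODE its exons share 7.9% of their bases with Twf1 on the opposite strand, which strand-specific counting keeps apart.

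**Figure D2:**
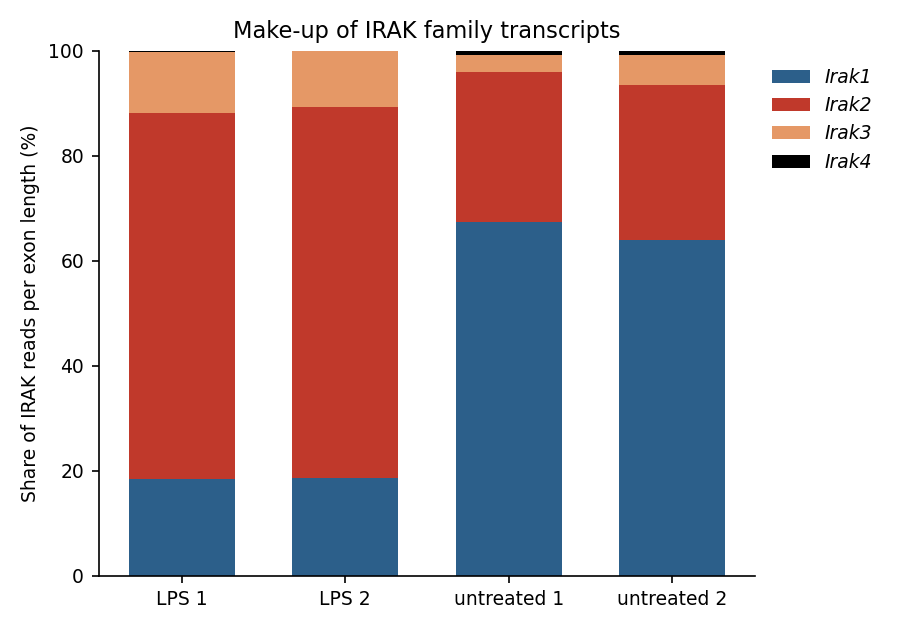
Share of each IRAK gene (percent of the 4 genes' reads per exon length, stacked) in each library. Irak2 made up 69.8% and 70.7% in the LPS libraries and 28.6% and 29.5% in the untreated libraries, and Irak1 made up 18.4% and 18.6% in the LPS libraries and 67.4% and 64.0% in the untreated libraries.

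Ratios of genes within a library do not depend on how libraries are scaled. Per base of exon, Irak2 reads outnumbered Irak1 reads by 3.80 and 3.81 to 1 with LPS, and stood at 0.424 and 0.461 to 1 untreated. The ratio was thus 8.60-fold higher in LPS libraries, with a log2 difference of 3.11 and a combined replicate SD of 0.084. With a library left out, the log2 difference was 3.04 to 3.16. In the plot of IRAK shares Irak1 took 18.4% and 18.6% of the family with LPS and 67.4% and 64.0% untreated. Shares sum to the same total in each library, so that of Irak1 is lower wherever Irak2 is higher. The level of Irak1 itself was 60.9 ± 2.78 CPM with LPS and 75.0 ± 1.59 CPM untreated (SD, n = 2 each), 0.81-fold. The ratios are given as a description, since an exact permutation test of 2 against 2 libraries cannot give a two-sided p below 0.333.

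Irak3 to Irak1 stood at 0.634 and 0.576 with LPS and 0.0484 and 0.0883 untreated, 9.25-fold higher. Irak3 to Irak2 stood at 0.167 and 0.151 with LPS, inside the untreated values of 0.114 and 0.192. Myd88 to Irak1 was 5.54 and 4.63 with LPS and 1.82 and 2.14 untreated. TRIF to MyD88 transcripts (Ticam1 to Myd88) stood at 0.134 and 0.108 with LPS and 0.203 and 0.163 untreated, lower in both LPS libraries. Ticam1 to Ticam2 was 4.84 and 3.12 with LPS and 2.5 and 1.84 untreated, a wide range within each group.

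The TRAF ligases at the head of each branch did not pass the test. Traf6, which serves the MyD88 branch, had 47.8 and 40.1 CPM with LPS and 51.1 and 46.7 CPM untreated, so the groups overlapped. Its log2 fold change was -0.16 (95% interval -0.43 to 0.11, edgeR adjusted p = 0.318). The interval spans both directions. Traf6 was called in 1 of 15 alternatives, under plain library-size scaling (-0.52, adjusted p = 0.000674). Traf3, which serves the TRIF branch, had 26.7 and 20.3 CPM with LPS and 18.6 and 22.3 CPM untreated, with the untreated values inside or below the LPS range. Its log2 fold change was 0.20 (95% interval -0.17 to 0.56, edgeR adjusted p = 0.372), it was called in none of the 15 alternatives, and under plain library-size scaling its sign changed (-0.16). Relative to Traf6, Traf3 stood at 0.598 and 0.544 with LPS and 0.390 and 0.513 untreated.

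**Figure D3:**
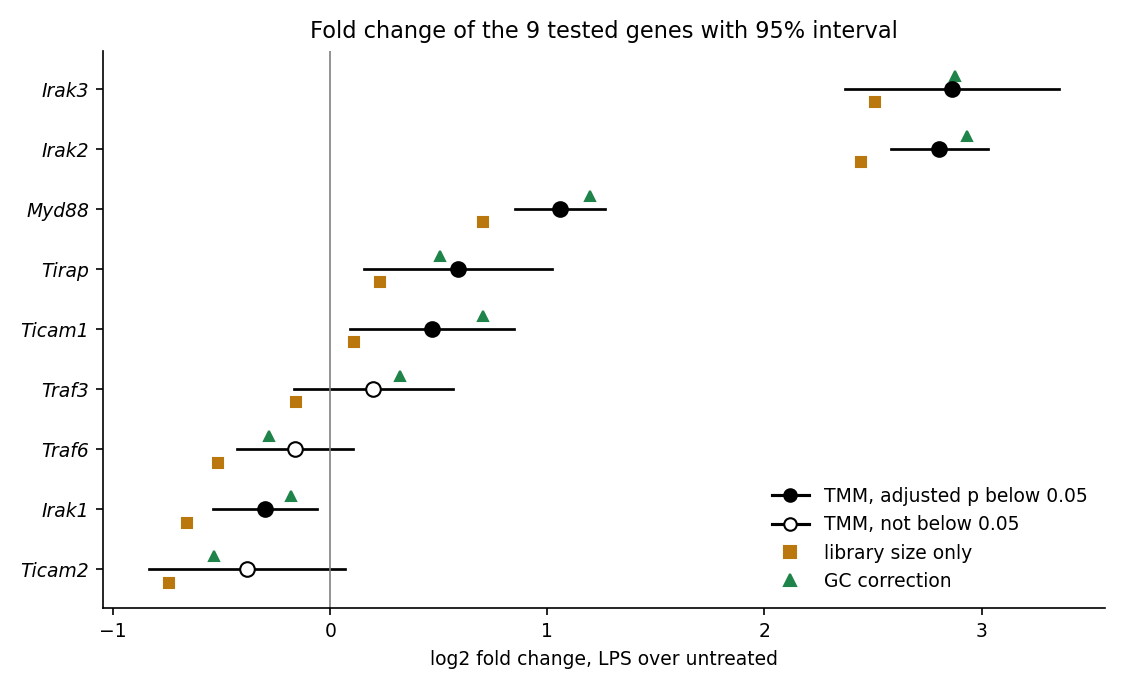
Log2 fold change of LPS over untreated for the 9 tested genes (circles, filled where the edgeR adjusted p is below 0.05) with 95% intervals, beside the values under plain library-size scaling (squares) and after GC correction (triangles). Irak3, Irak2 and Myd88 lie right of 0 in all 3 settings, while Traf3 changes sign under plain library-size scaling.

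Compared per kilobase of exon, Myd88 was the most abundant of the 10 transcripts in both groups, at 65.5 ± 5.23 CPM per kb with LPS and 31.5 ± 3.00 CPM per kb untreated (SD, n = 2 each). In LPS-treated cells Irak2 came next (49.1 ± 2.26 CPM per kb), then Irak1 (12.9 ± 0.59), and in untreated cells this order was Irak1 (15.9 ± 0.34) before Irak2 (7.03 ± 0.26). With LPS, Ticam1 (7.98 ± 1.82) and Irak3 (7.80 ± 0.17) overlapped, Traf6 (5.58 ± 0.70) followed, Tirap (3.61 ± 0.82) and Traf3 (3.20 ± 0.61) overlapped, and Ticam2 (2.03 ± 0.17) was below them. Untreated, Traf6 (6.20 ± 0.39) and Ticam1 (5.71 ± 0.34) overlapped. Ticam2 (2.68 ± 0.43) overlapped both Traf3 (2.78 ± 0.36) and Tirap (2.41 ± 0.012), which did not overlap each other. Irak3 was at 1.08 ± 0.43 CPM per kb untreated, and Irak4 was last at 0.0690 ± 0.098 with LPS and 0.205 ± 0.021 untreated. These lengths are those of GENCODE exons, and with the longest transcript as length Irak2 reached 67.8 against 68.6 for Myd88 in LPS-treated cells.

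Likeness was measured by Euclidean distance of log2 CPM over the 4 libraries, among tested genes without numbered Gm or Mir, Rik or LOC symbols. Among these, the genes closest to Irak2 were Lgals9 (0.164), Nfkbia (0.245) and Pmp22 (0.410). Lgals9 averaged 200 CPM with LPS and 30.9 CPM untreated. The genes closest to Irak3 were Bcl2l1 (0.464), Ms4a6c (0.553) and Tap2 (0.572), all at greater distance than those of Irak2. Irak3 had only 15 and 23 untreated reads, and the part of counting error in these distances was not tested. Closest to Myd88 were Psmd7 (0.132), Itgb2 (0.206) and Aftph (0.212), and closest to Irak1 were Pik3c3 (0.104), Aar2 (0.105) and Adsl (0.120).

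Genes around the adaptors were read from the same fit, in which 26.6% of all genes tested rose and 25.3% fell. Tlr3, Il1rap, Cd36, Tnip3 and Traf1 had at most 6 reads in each untreated library and entered the test through the LPS libraries, so their place in a count of higher genes was set by the filter. Scimp, counted among the higher accessory genes, had 13 and 9 reads untreated and 15 and 15 with LPS. It reached the filter's threshold in both libraries only in the LPS group. Of 10 tested receptors that use these adaptors, 6 rose and none fell, with a median log2 fold change of 0.80. Tlr3 and Il1rap are part of that count and that median. Tlr3, a TRIF-dependent receptor of double-stranded RNA, rose 32.8-fold to 34.7 ± 0.95 CPM with LPS, against 1.02 ± 0.19 CPM untreated (SD, n = 2 each), and Tlr2 rose 9.21-fold, Tlr13 2.39-fold and Tlr7 1.40-fold. Tlr4 was at 51.9 ± 1.79 CPM with LPS and 42.3 ± 2.62 CPM untreated (edgeR adjusted p = 0.0545). Of 11 accessory genes 7 rose and 1 fell. Cd14 rose 16.0-fold, Pik3ap1, the gene of the adaptor BCAP, 3.60-fold, Ly96, the gene of the TLR4 partner MD-2, 2.98-fold, Cd180 1.71-fold and Hsp90b1 1.68-fold.

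Of 16 kinase complex genes downstream, 8 rose and 3 fell, with a median log2 fold change of 0.31. Ikbke rose 13.8-fold, Map3k8 6.24-fold, Tank 2.95-fold, Ikbkg 2.46-fold and Tbk1 2.32-fold. The 3 lower genes were Map3k1, Tbkbp1, which encodes a TBK1-binding protein, and Tab1, which fell by 0.85, 0.72 and 0.58 on the log2 scale. With GC-corrected offsets only 1 of the 16 was lower. Map3k7, the gene of TAK1, was at 36.0 ± 2.45 CPM with LPS and 37.5 ± 2.10 CPM untreated (edgeR adjusted p = 0.726). Of 18 ubiquitin enzymes and partners, 11 rose and 3 fell, with 1 lower under DESeq2, after GC correction and without either untreated replicate. Those that rose included Tnfaip3 (31.6-fold), Trafd1 (17.8-fold), Peli1, the ligase that acts on IRAK1 (3.13-fold), and Usp25 (2.99-fold). Of the 13 tested inhibitors 5 were higher and 5 lower, and 8 were lower under plain library-size scaling. The higher ones include Tnip3, which entered the test through the LPS libraries. Higher were Tank, also in the list of kinase complex genes, Tnip3 (87 and 113 reads with LPS, 1 and 2 untreated, a ratio of 105 with a 95% exact interval of 35.5 to 514), Cd300lf (7.74-fold), Tnip1 (7.55-fold) and Atf3 (5.71-fold). Lower were Nlrc3 and Traf3ip3, which fell by 1.37 and 1.36 on the log2 scale, Traf4, and Dok3 and Cd300a, which fell by 0.69 and 0.66.

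Of 7 other TRAF family genes, 4 rose and 2 fell, with 2 higher under DESeq2. The 4 include Traf1, which entered the test through the LPS libraries. Traf1 had no untreated reads and was at least 133-fold higher, Traf2 rose 1.61-fold, and Traf4 and Traf7 fell by 0.85 and 0.38 on the log2 scale. Of 12 transcription factor genes at the end of the branches, 8 rose and 1 fell, with 5 higher and 3 lower under plain library-size scaling, led by Irf7 (90.7-fold), Relb (4.17-fold), Nfkb2 (3.40-fold) and Nfkb1 (2.84-fold).

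Genes commonly read as targets of the branches often had few or no reads without LPS, and no count of those that rose is given, because many entered the test through the LPS libraries. Of 9 MyD88 targets 7 were tested. Tnf rose 47.4-fold, Ptgs2 15.3-fold and Nfkbia 7.99-fold. Il1b had 2198 and 2673 reads with LPS and 4 and 3 untreated, while Il6 and Cxcl2 had 82 to 105 reads in the LPS libraries and 0 in the untreated libraries. Il12b had 2 and 1 reads with LPS and 0 in both untreated libraries, Cxcl1 had 0 in every library, and neither was tested. Of 9 TRIF targets 8 were tested, 6 of them with at most 6 reads in each untreated library. Ifit2 rose 67.6-fold, and Irf7 is also in this list. Rsad2 had 3416 and 3794 reads with LPS and 6 and 4 untreated. Ifit1 had 1523 and 1775 reads with LPS and 5 and 2 untreated. Cxcl10 had 1150 and 1268 reads with LPS and 1 and 1 untreated, a ratio of 1910 with a 95% exact interval of 528 to 15800. Ifnb1, the gene of interferon beta, had 3 and 2 reads with LPS and 0 in both untreated libraries and was not tested.

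**Figure D4:**
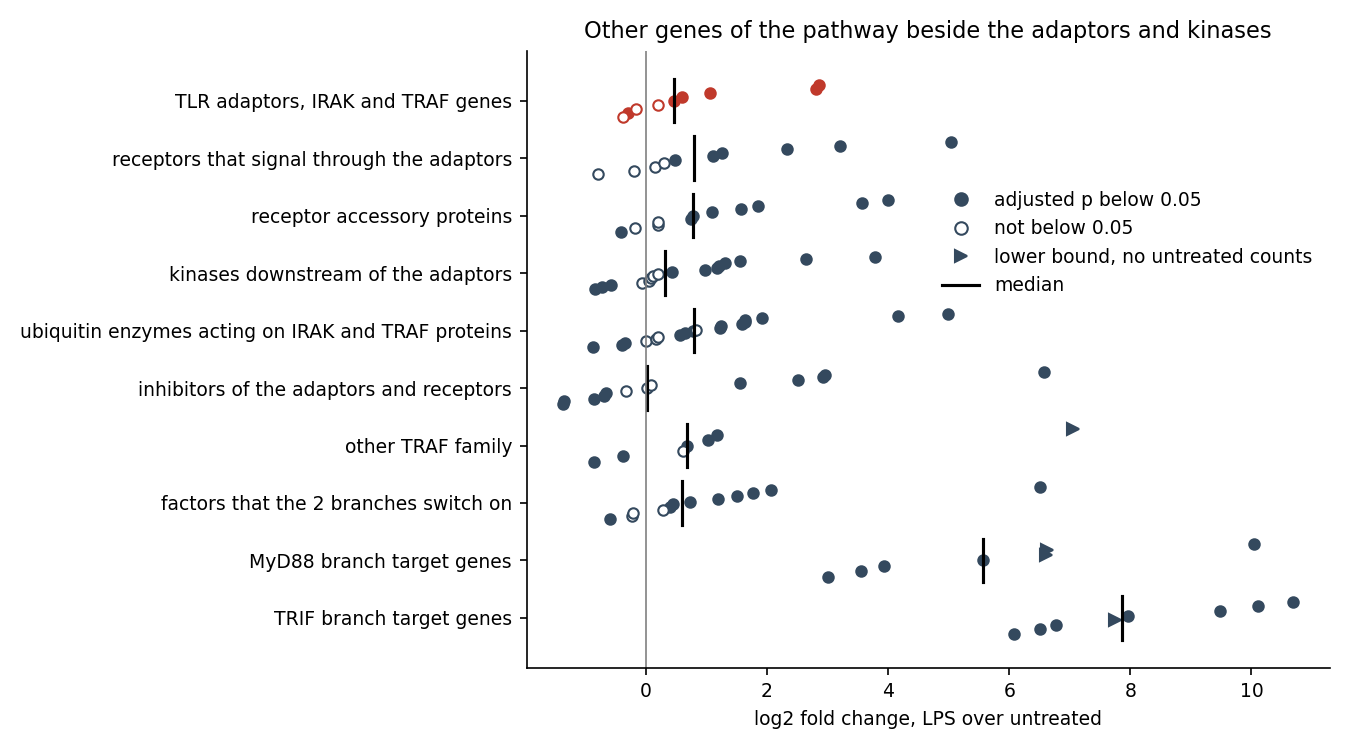
Log2 fold change of LPS over untreated for each tested gene of the pathway, by list (filled where the edgeR adjusted p is below 0.05, arrowheads for lower bounds of genes without untreated reads), with a bar at the median. The adaptor, IRAK and TRAF genes (top row, red) span -0.38 to 2.87, and 9 target genes entered the test through the LPS libraries.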

How the data were processed

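Raw read counts per gene were deposited by the authors for 2 LPS and 2 untreated libraries, in the layout of STAR's gene counts, not normalised and not pooled. Per the submitters' processing notes the tools named are STAR 2.5.1, Trimmomatic 0.33, CASAVA 1.8.2 and DESeq2, with hg19 as build, although symbols and organism field are mouse. The protocol text likewise speaks of human cells. Which annotation was counted is not stated in these sources. Per the labels' protocols, RNA was ribosome-depleted and libraries strand-specific, so the strand-matched count column was used, which held 78.7 to 95.3 times as many gene counts as the opposite-strand column. The 4 summary lines were left out of library sizes. Of uniquely placed reads, 59.1% and 57.4% fell in no feature in the LPS libraries and 53.0% and 51.8% in the untreated libraries. TMM factors were 0.888 and 0.880 with LPS and 1.16 and 1.10 untreated. Both measures split by treatment, and their part in the small differences was not tested.

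Genes passing edgeR's expression filter (9992 of 12982 with any count) were fitted in edgeR 4.0.16 (R 4.3.3; TMM, robust quasi-likelihood test, two-sided, treatment as the only term; adjusted p below 0.05). The procedure was tested on simulated counts with as many genes raised as lowered, at a fixed dispersion of 0.02. That setting had no difference in composition between the groups, so it does not test the scaling of these data. The SE is the log2 fold change over the square root of F, and 95% intervals rest on it. A fold without untreated reads is a bound against 3 counts over the group. Counting intervals and floors cover counting error only. Exon lengths, GC content and overlaps come from GENCODE vM21 (GRCm38) by symbol, and 96.6% of tested genes had a GC value. Of the pathway symbols Lrrc33 did not match. Over genes with a pair sum of at least 40 counts, the 5 abundant entries named below left out, chi-square divided by its degrees of freedom was 2.55 in the LPS pair and 1.54 in the untreated pair, above sampling noise, so no library was taken for a second deposit of another. That does not show separate cultures.

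The genes, lists and named-gene rule were chosen with earlier results of these data known. The 10 genes are all named; each other list gives up to 4 called genes by smallest p, and Tlr4, Cd14, Ly96, Map3k7, Tbk1 and Spi1 are named in any case. Tmed7, Il1rap, Cd36, Scimp, Tab1, Map3k1, Tbkbp1, the lower inhibitors, Il6, Cxcl2, Il12b, Cxcl1 and Ifnb1 were added after their values were seen. The alternatives were RLE, upper quartile and library size scaling, DESeq2 1.42.0, 2 other filters, unstranded counts, a replicate block, GC-corrected offsets with and without the block, leaving out 5 abundant entries (Rn45s, Lars2, Mir6236, Rmrp, Rpph1), and leaving out each library.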

Additional observations from a re-analysis of the deposited data

Results flagged for a closer look

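In the opposite-strand count column, used in no comparison, Myd88 had 7 reads over the LPS libraries, all 7 in replicate 2, and 0 in the untreated libraries. Over all 10 genes that column held 13 reads with LPS and 6 untreated.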

How the results depend on the processing

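Irak2, Irak3 and Myd88 were higher and called in all 15 alternatives. The other calls rested on small differences: Tirap was called in 8, Ticam1 in 9 and Irak1 in 9 of 15. The number of the 10 genes called higher, 5 as reported, was 3 with DESeq2, upper quartile scaling and plain library-size scaling, and 3 to 4 when a library was left out. The number called lower, 1 as reported, was 0 with DESeq2, 3 with plain library-size scaling and 0 to 1 when a library was left out; after GC correction it was 1 again, but that gene was Ticam2 and not Irak1. Over all genes tested, 2659 were higher and 2527 lower as reported, against 1760 and 1405 with DESeq2 and 1379 and 4778 with plain library-size scaling, where 22.4% of called genes were higher in place of 51.3%. Leaving out a library gave 2114 to 2547 higher and 1949 to 2370 lower. The log2 fold change of Traf3 was -0.16 under plain library-size scaling in place of 0.20, and the cause was not tested.

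With the replicate number as a block, the same 5 of the 10 genes were higher and the same 1 lower, and 2658 and 2513 of all genes; same-numbered libraries did not deviate together (correlation of deviations -0.0435), so the numbers are not treated as pairs. Counts of the pathway lists stayed within 1.5 times in 243 of 270 cases and moved in 27. The 243 include counts that stayed at 0. They also include both lists of branch targets, which were the same in every alternative. Many genes of those lists entered the test through the LPS libraries, so their counts could hardly move. With 2 libraries per group and 3256197 to 4502105 gene counts each, the counting interval of the Irak4 ratio (0.0336 to 1.48) left both a fall and a rise of up to 1.48-fold unresolved.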
